A study of Homo sapiens with 8 samples.

Results

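Some m6A peaks do not lie in 1 exon but run across several, so that their bases are contiguous in the spliced mRNA and scattered in the genome. The 418 peaks described here have 4 or more exon blocks in the authors' peak list, of 22626 peaks in all (1.85%). They were chosen by block count alone, and neither enrichment nor the difference between the arms entered the choice. They lie on 400 genes, and 380 of the 385 peaks whose gene was found in the RefSeq gene table are on protein-coding genes.

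The libraries come from HCT116, a human colorectal cancer cell line. Control cells carried the hairpin that the titles call sh_NC and are labelled as WT in genotype. The other arm carried sh_AL1, the only hairpin named against ALKBH5, and is labelled as ALKBH5 knockdown, which the labels describe as stable. Each arm gave 2 input libraries of fragmented poly(A) RNA and 2 libraries of fragments pulled down with an m6A antibody (IP), 8 libraries in all. The protocols and labels name more than 1 m6A antibody and fragment length. The design text sets out to describe how ALKBH5, a demethylase of m6A in RNA, shapes this mark. Only 1 list of peaks for the whole series was analysed, and the comparison of the arms in it is the authors'. No value below therefore has a replicate error, values per library are not shown, and sequencing depth is unknown. ALKBH5 has 3 peaks in the list, each of 1 block, so the knockdown could not be checked among the peaks described here. Of 9 colorectal epithelium markers, 6 had a peak (EPCAM, KRT8, KRT18, KRT19, CDH1 and CDX2) and none had one of 4 or more blocks, against 1 of 7 fibroblast, 1 of 6 leukocyte and 0 of 4 endothelial markers with any peak.

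As background, m6A is written on nascent mRNA by the METTL3-METTL14 complex, most often at an adenosine in a GGAC core, and is removed by ALKBH5 and FTO. The mark is typically dense in long internal exons and around stop codons. It is sparse in short internal exons, where the exon junction complexes left by splicing keep the writer from RNA close to a junction. Immunoprecipitated fragments can be as long as a short exon and can span a junction, and a peak found along the spliced transcript is then reported as blocks, 1 for each exon it crosses. A block is thus a stretch of exon under the peak and not a methylated base.

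A few of these peaks can be shown by sequence. RefSeq sequence around gene starts (GRCh38.p14, windows of 300 bases) fell inside the blocks of 47 of the 418 peaks and covered 1.26% of their exonic bases. The 4 letters GGAC were searched on the strand of the transcript, and 8 peaks held 11 such sites with enough flanking sequence. Over the whole table of 35116 windows, 66.3% held GGAC on the gene's strand and 87.4% on either strand, so a match is common and describes only what lies under the peak. The sites below show the cores that these junction-crossing peaks cover, with GGAC in capitals, 5′ to 3′ on the transcript. The genes were chosen because sequence was at hand. Windows can belong to another start than that of the listed gene, as for CDYL, DHX38 and PHLPP2, and the sequence is written on the strand of the peak. The HOOK2 peak lies before that gene's RefSeq start, and those of PHLPP2 and CDC37 run past their gene's RefSeq bounds. The HOOK2 peak (2.51-fold enriched) also shares bases with a JUNB peak on the opposite strand (10.8-fold). That of PHLPP2 (31.2-fold) does so with an opposite-strand MARVELD3 peak (33.6-fold). From which gene the RNA under the HOOK2 and PHLPP2 sites came was not tested. The first 4 sites belong to peaks called between the arms and the other 5 to peaks that were not.
CDYL, the second of 4 blocks, chr6:4892140-4892169, plus strand: gcaggaccgcagtGGACggctttcagagcg
CDYL, the second of 4 blocks, chr6:4892173-4892202, plus strand: gccctgagaaactGGACcccgtcgagcagg
CDYL, the second of 4 blocks, chr6:4892197-4892226, plus strand: agcagggtcaggaGGACacagtggcacccg
EDF1, the first of 4 blocks, chr9:136866263-136866292, minus strand: tgagccgccggacGGACgctcgtcttcgcc
DHX38, the first of 5 blocks, chr16:72094005-72094034, plus strand: gccccagaatccgGGACagaagggtcccaa
HOOK2, the last of 4 blocks, chr19:12792532-12792561, minus strand: ccatgttgatgggGGACaccggcggcgtgg
PHLPP2, the third of 4 blocks, chr16:71640616-71640645, minus strand: acacccatggtgaGGACccccagacccaga
TAF13, the first of 4 blocks, chr1:109075959-109075988, minus strand: gagccagccggcaGGACgctgtgagttggc
UAP1, the first of 4 blocks, chr1:162561699-162561728, plus strand: cggagcgagcgcgGGACgccgatgagtggc

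The CDYL peak is the fullest view of one such region. CDYL encodes a chromodomain protein of chromatin repression, and its peak has blocks of 53, 667, 34 and 171 bases, 5′ to 3′. All 3 sites shown sit in the block of 667 bases, which alone is longer than the median peak described here. In the authors' deposited table the CDYL peak was enriched 28.4-fold, with a log2 fold between the arms of 0.44 (FDR 0.0016). EDF1, a transcriptional coactivator, carries its site in the block at its annotated start, where GGAC occurs in tandem. The EDF1 peak was enriched 3.15-fold in the authors' deposited table, with a log2 fold of 0.38 (FDR 0.0042). The 2 peaks are thus close in fold between the arms and far apart in enrichment.

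One peak also covers a whole microRNA hairpin. The second of 5 blocks on CDC37, a co-chaperone of HSP90 for kinases, contains MIR1181 on the same strand (chromosome 19, 10403458 to 10403538, 81 bases, GRCh38.p14). Its mature sequence is given by RefSeq as follows, with the seed (bases 2 to 8) in capitals.
hsa-miR-1181: cCGUCGCCgccacccgagccg
The CDC37 peak was enriched 9.43-fold and was not called, with a log2 fold of -0.27 at FDR 0.27 per the authors' deposited table. It was the only one of the 418 peaks with a RefSeq microRNA wholly inside a block on its strand.

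Most of these peaks had the fewest blocks that the rule allows. There were 314 peaks of 4 blocks, 72 of 5, 21 of 6, 4 of 7, 2 of 8, 1 of 9, 3 of 10 and 1 of 11. The peak of 11 blocks is on MYH9, which encodes the heavy chain of non-muscle myosin IIA. It covers 2430 exonic bases of chromosome 22 between 36282390 and 36293464, on the minus strand, in blocks of 136, 249, 213, 213, 162, 129, 180, 124, 209, 419 and 396 bases. EIF3A, the largest subunit of the translation initiation factor eIF3, had 10 blocks over 2398 bases, and ASPH, an aspartate hydroxylase of the endoplasmic reticulum, had 10 over 630 bases. The ASPH blocks measured between 5 and 138 bases, with the shortest at the 3′ edge, where the peak's border may cut it. Those of EIF3A measured between 59 and 779 bases, so the same number of blocks can cover very different exonic lengths. EZR, which encodes the membrane-cytoskeleton linker ezrin, had 9 blocks, and MYH14, the heavy chain of non-muscle myosin IIC, had 2 peaks of 8 blocks each. SMURF2, EIF5B and TNNT1, a troponin T gene, had peaks of 7 blocks.

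**Figure D1:**
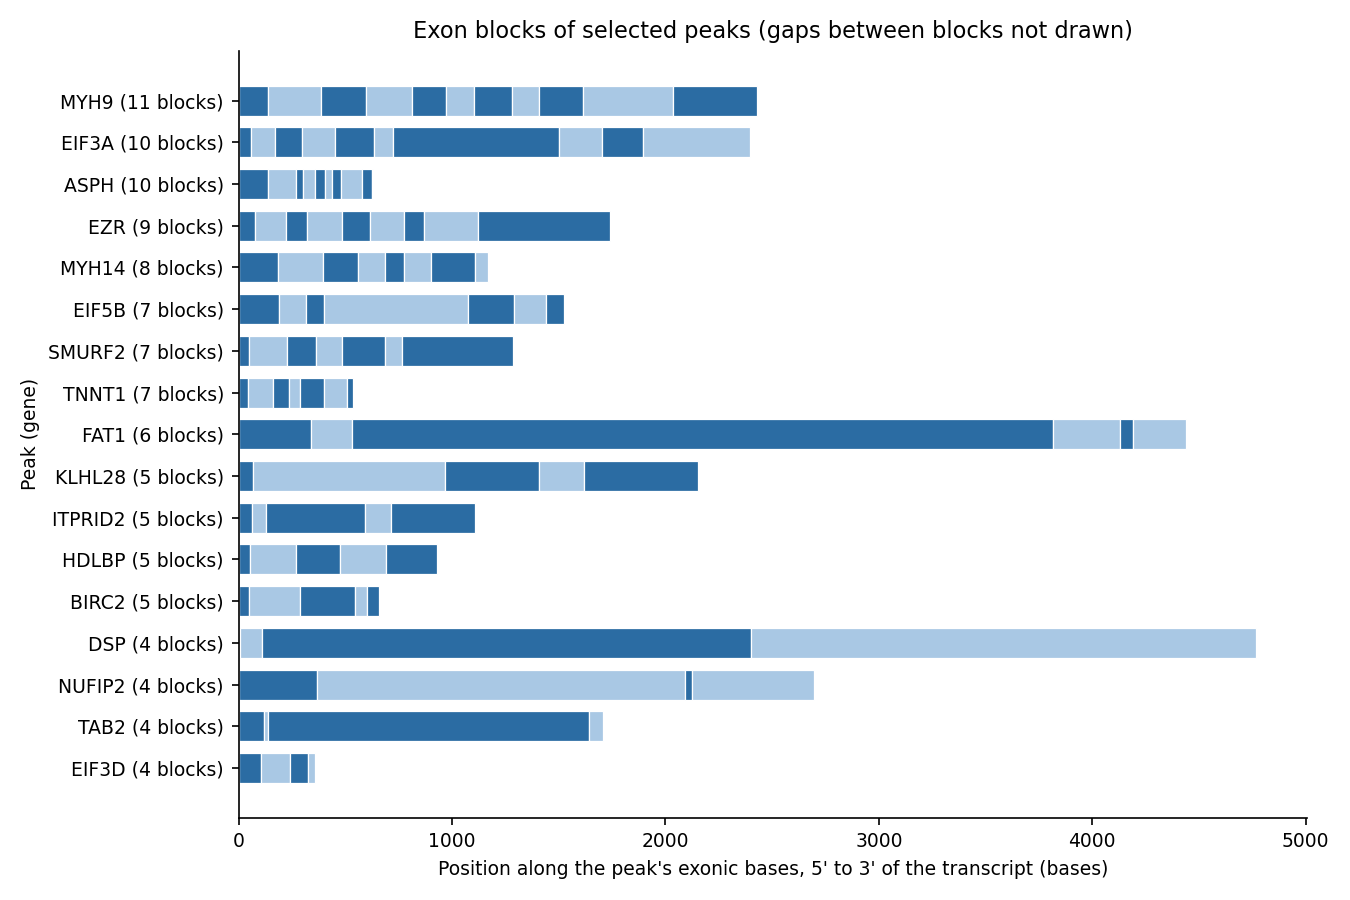
Exon blocks of 17 peaks along their exonic bases, 5′ to 3′ (x axis, bases), with alternating shades for successive blocks and the gaps between them left out. MYH9 shows 11 blocks of 124 to 419 bases, while FAT1, TAB2 and DSP are dominated by 1 or 2 long blocks.

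Exonic length ran from 121 to 4767 bases with a median of 570, against a median of 300 for the 22208 peaks of fewer blocks. The longest was on DSP, which encodes the desmosomal plaque protein desmoplakin, with 2 short blocks of 9 and 99 bases followed by 2 of 2295 and 2364. FAT1, a giant atypical cadherin, was next with 4440 bases, of which 1 block held 3283. NUFIP2, a stress granule protein, followed with 2698 bases, before MYH9 and EIF3A. On the genome the peaks spanned a median of 8656 bases, and a median of 7.08% of that span was exonic. The widest was on the small GTPase gene ARL15, where 659 exonic bases spread over 227053 bases of chromosome 5. The read-through gene LINC02210-CRHR1, which the naming rule passes over, was next with 184995 bases. EXOC6B, MED13L, ZSWIM6 and APBB2 had spans of 165666, 164704, 161375 and 120578 bases, and 2 peaks on genes without a symbol lay above APBB2, at 123997 and 123769.

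Inner blocks and edge blocks differed in length. The 1000 inner blocks, which have a neighbour on both sides, had a median of 130 bases (quartiles 86.8 and 188), close to that of the 1239 inner blocks of 3-block peaks (147). The 836 edge blocks, which the peak's own border may cut, had a median of 51 bases. They were shorter at the 5′ edge (median 45, 1 to 792 bases) than at the 3′ edge (median 62.5, 1 to 2364 bases). Edge blocks under 10 bases occurred in 76 peaks, and 67 peaks had fewer than 4 blocks of at least 10 bases. The longest block was an inner one in 272 peaks (65.1%), the 3′-most one in 104 (24.9%) and the 5′-most one in 42 (10.0%). It held a median of 47.0% of a peak's exonic bases. Of the 1418 gaps between blocks, the median was 1518 bases, near the 1614 of peaks with 2 or 3 blocks, and 180 exceeded 10000 bases. In 6 peaks (ESPN, STMN1, ZFAND1, EIF3A, LRRC37A16P and TICAM1) a gap was under 30 bases, which is shorter than a usual intron.

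**Figure D2:**
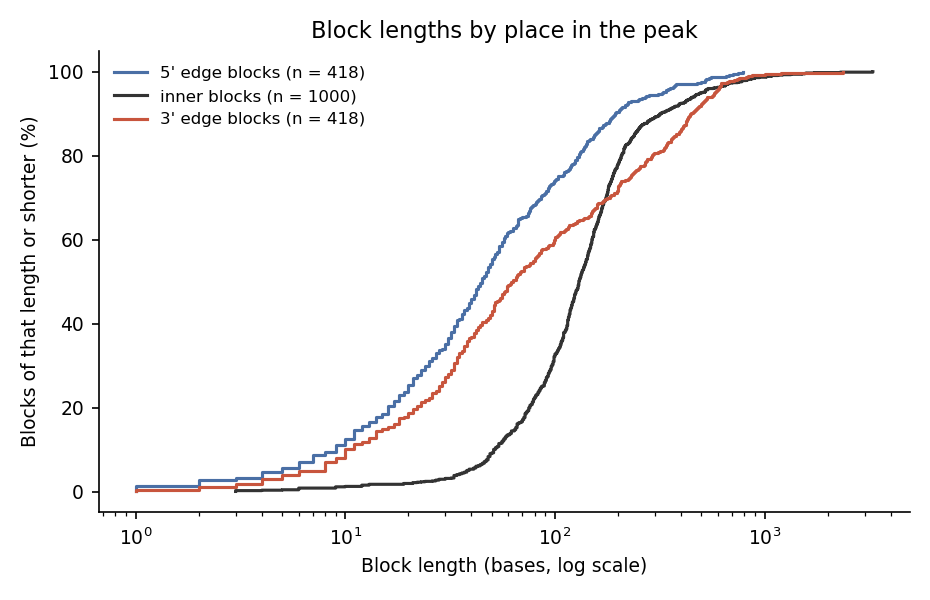
Cumulative share of blocks (y axis, percent) by block length (x axis, bases, log scale) for the 418 first, the 1000 inner and the 418 last blocks of the peaks, 5′ to 3′. Inner blocks centre on 130 bases, and the last blocks reach further into long lengths than the first, with medians of 62.5 and 45 bases.

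Peaks of many blocks lay away from the 3′ ends of their genes more often than other peaks. Of 372 peaks that lay within an annotated gene, 35 (9.41%) ended within 1000 bases of its 3′ end, against 25.6% of 19796 other peaks and 29.4% of single-block peaks. At the 5′ end the share was 16.1% (60 peaks), against 11.4% of other peaks. Their centre lay at a median of 57.9% of the gene's length from its start, where that of other peaks lay at 82.9%. In 63 of the 372 (16.9%) the peak spanned over 50% of the gene, which 1.90% of the other peaks did. Peaks with more blocks also have shorter blocks and greater span, and the part of these in the position was not tested. Gene starts and ends are those of GRCh38.p14, and coding bounds were not used.

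FAT1, NUFIP2, EIF5B and KPNA6 are examples at the 5′ end. The FAT1 peak began 4 bases after the annotated start and ran over 90026 bases of chromosome 4 (186636667 to 186726692, minus strand). That of EIF5B, the factor that joins the ribosomal subunits, began 12 bases after the start and had 7 blocks over 1526 bases. Those of NUFIP2 and of KPNA6, an importin alpha, began at the start itself. At the other end, the peak of SLC39A7, a zinc transporter of the secretory pathway, ended 28 bases before the annotated end, that of CCDC124, a ribosome-associated protein, 113 bases before it, and that of TCOF1, 195.

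Enrichment of IP over input was moderate and varied widely. In the authors' deposited table the median was 8.81-fold, with quartiles of 4.61 and 15.8 and a range of 1.86 to 116, against a median of 10.1 for the other peaks. Enrichment was higher in longer peaks. All peaks were put in 5 classes of about equal size by exonic length. In the longest class (over 541 bases) the median was 13.5 for the 219 peaks of 4 or more blocks and 18.6 for the 4281 others. In the next class (over 360 bases) it was 6.05 for 109 peaks and 12.4 for 4244, and in the middle class (over 241 bases) 4.06 for 66 peaks and 8.55 for 4374. The median was thus lower in each of these length classes, and it was also lower in the 2 shortest, which hold 7 and 17 of the peaks.

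**Figure D3:**
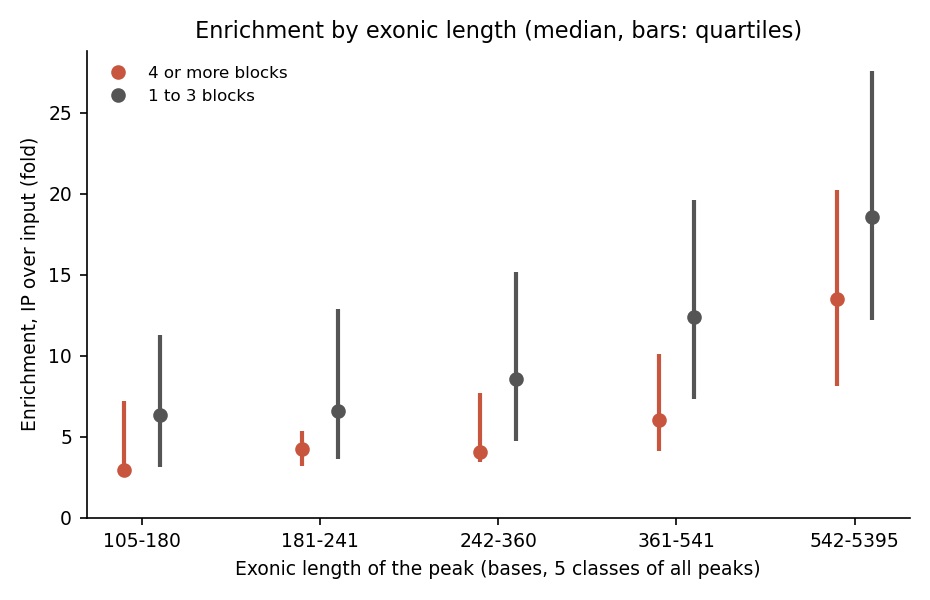
Enrichment of IP over input (y axis, fold) in 5 classes of exonic length set on all peaks (x axis, bases), as medians (points) and quartiles (bars) for peaks of 4 or more blocks and of 1 to 3 blocks. The median of peaks of 4 or more blocks is the lower one in all 5 classes, 13.5 against 18.6 in the longest.

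A long exon under the peak went with high enrichment. The 122 peaks with a block of at least 400 bases had a median of 17.3-fold in the authors' deposited table (quartiles 11.4 and 24.7). The 167 peaks whose blocks were all of 200 bases or fewer had 5.20-fold (quartiles 3.46 and 8.91), and the 129 between had a median between these, with quartiles of 4.85 and 14.1. These sets differ in exonic length too (medians of 1002, 360 and 599 bases), and the part of length was not tested. Peaks made of short blocks only include those of EIF3D (103, 137, 86 and 33 bases) and F11R (16, 13, 49 and 103 bases), whose blocks can be set beside the CDYL block of 667 bases shown above. Edge blocks may be cut by the peak's border, so the exons they lie in can be longer.

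BIRC2, which encodes the apoptosis inhibitor and ubiquitin ligase cIAP1, had the highest enrichment, 116-fold in the authors' deposited table, over 5 blocks of 47, 243, 255, 57 and 55 bases. None of its blocks reached 400 bases. KLHL28, a kelch-like protein, followed at 77.4-fold in the authors' deposited table, with a block of 899 bases. EPB41, the membrane skeleton protein 4.1R, stood at 75.9-fold, the EGF signalling adaptor CCDC50 at 75.1-fold and NUFIP2 at 65.0-fold in the authors' deposited table. Among named genes the lowest values belonged to the junctional adhesion molecule gene F11R at 1.86-fold, the retinoic acid binding protein gene CRABP2 at 1.99-fold and the chaperone gene CANX at 2.08-fold in the authors' deposited table. APLP2, a relative of the amyloid precursor protein, stood at 2.12-fold and the vitamin D hydroxylase gene CYP24A1 at 2.16-fold in the authors' deposited table. The 3 named genes of lowest enrichment all carried a peak called between the arms, as did a gene without a symbol at the F11R locus (1.87-fold), whereas BIRC2 was the only one called of the 5 highest.

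The comparison of the arms asks which of these peaks differed between sh_AL1 and sh_NC cells. Which arm stands above the fraction in the authors' log2 fold is not stated, so a positive sign is not read as more or less m6A in the knockdown. Nor is it stated whether the fold is corrected for transcript level, and a called peak may reflect m6A, mRNA level or both. At the authors' false discovery rate (FDR) of 0.05, 77 of the 418 peaks were called (18.4%), where 8.23% of all peaks were. These are counts of peaks, which are not independent where they share a gene or locus, and the difference was not tested. Of the 418, 67 (16.0%) were called with a positive fold, beside 5.74% of all peaks, and 10 (2.39%) with a negative fold, beside 2.49%. Over the whole list, the share called negative was thus near the background, and the difference from it lay in the positive calls. Among peaks of like peak p, the share called negative was lower than in other peaks in the 2 classes of smallest p, as given below. The median log2 fold of the 418 was 0.23, and that of all peaks was 0.14. Subtracting 0.14 changed no sign among the 77.

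More blocks went with a larger share called up to 4 blocks. The share was 7.14% of 15743 peaks of 1 block, 9.47% of 5226 of 2 blocks and 13.4% of 1239 of 3 blocks, the class just outside the rule. It was 18.8% of 314 peaks of 4 blocks and 17.3% of 104 of 5 or more. The share called with a positive fold was 4.64% at 1 block, 6.95% at 2, 11.1% at 3, 16.6% at 4 and 14.4% at 5 or more. The share called with a negative fold lay between 2.23% and 2.88% in these 5 classes. Folds themselves were small, with a median size of 0.87 on the log2 scale among the 77, against 1.13 among the called peaks of fewer blocks, and 13 of the 77 were under 0.5 in size.

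**Figure D4:**
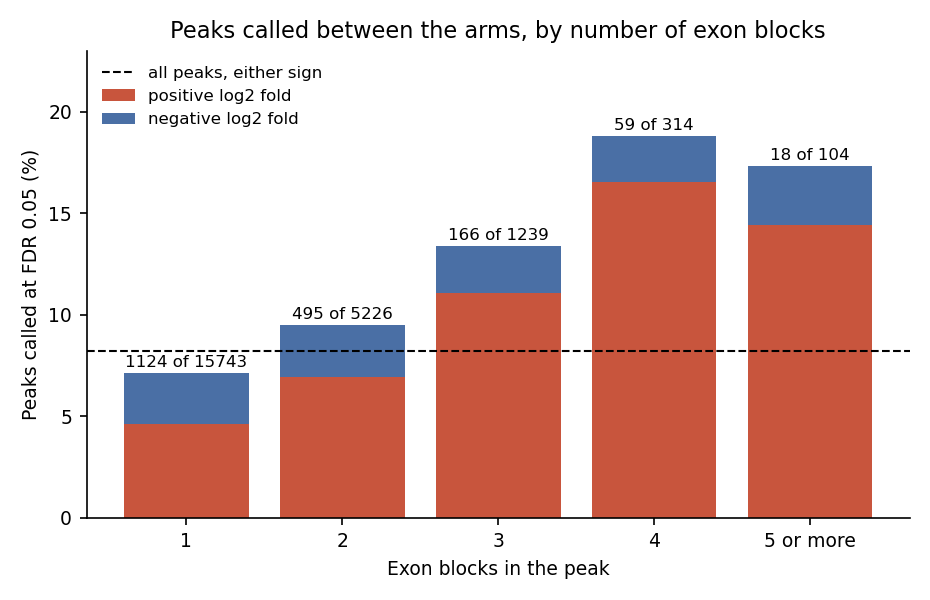
Share of peaks called at an FDR of 0.05 (y axis, percent) by number of exon blocks (x axis), split by the sign of the log2 fold, with counts above the bars and the share of all peaks (8.23%) as a dashed line. The share is 7.14% at 1 block, 18.8% at 4 and 17.3% at 5 or more.

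Peaks of many blocks were also longer and more significant as peaks, and both go with calls. The median log10 p of the peak was -36.1 in the 418 and -8.04 in the others. In the class of 5 with the smallest peak p, 53 of 206 (25.7%) were called, against 21.6% of 4320 others. In the next class 19 of 104 were called (18.3%), against 10.8%, and in the middle class 4 of 72 (5.56%), against 5.10%. The other 36 peaks lie in the remaining 2 classes and held 1 call. By length, 44 of 219 (20.1%) in the longest class were called, against 12.5%, then 20 of 109 (18.3%) against 11.1%, and 11 of 66 (16.7%) against 9.21%. In the 2 shortest classes 1 of 7 and 1 of 17 were called, against 2.41% and 5.77%. The excess over other peaks was therefore smaller within classes of peak p than over the whole list. By direction, 46 of the 206 peaks of the smallest p (22.3%) were called positive and 7 (3.40%) negative, against 666 and 268 of the 4320 others. In the next class 18 of 104 were called positive and 1 negative, against 300 and 177 of 4421 others. What part block count has beside length, peak p and transcript level was not tested.

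**Figure D5:**
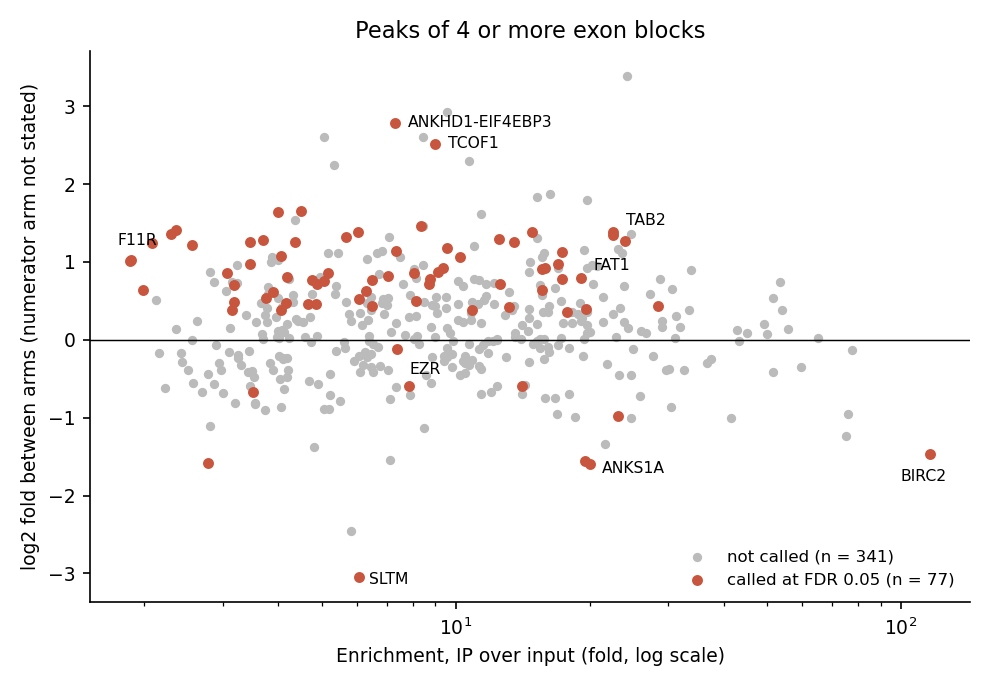
Log2 fold between the arms (y axis) against enrichment of IP over input (x axis, log scale) for each of the 418 peaks, with the 77 called ones in red. Called peaks lie mostly above 0 (67 of 77), and the called peak of BIRC2 is the most enriched of all, at 116-fold.

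The largest positive folds on named genes fell on genes of varied function. TCOF1 encodes treacle, which acts in ribosomal DNA transcription. Its peak, on chromosome 5 at 150396620 to 150400098, has blocks of 223, 98, 49 and 289 bases and a log2 fold of 2.52 at FDR 0.00018 per the authors' deposited table. The import receptor gene IPO7 had a log2 fold of 1.65 at FDR 0.0021 per the authors' deposited table, over blocks of 33, 206, 207 and 5 bases. The exocyst subunit gene EXOC6B had 1.64 at FDR 1.1e-05 per the authors' deposited table, over 6 short blocks of which none exceeded 205 bases, and this was the only peak on that gene. EIF3D, a cap-binding subunit of eIF3, had 1.36 at FDR 4e-13 per the authors' deposited table and was enriched only 2.29-fold. HNRNPD, a binder of AU-rich elements, had 1.39 at FDR 0.0098 per the authors' deposited table. ADRM1, a ubiquitin receptor of the proteasome, had 1.41 at FDR 4.3e-05 per the authors' deposited table, and its peak overlaps an unnamed gene on the other strand with a fold of the same sign.

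TAB2, an adaptor of the TAK1 kinase in NF-κB signalling, differed from these in its build. Its peak on chromosome 6 (149369983 to 149379999) has blocks of 117, 22, 1501 and 66 bases. In the authors' deposited table the TAB2 peak was enriched 22.6-fold, with a log2 fold of 1.39 (FDR 1.6e-19). The peak of NUB1, a negative regulator of NEDD8, stood at 1.34 (FDR 0.043) with an enrichment of 22.5-fold in the authors' deposited table. A peak on a gene without a symbol, at 1.39 with an FDR of 0.032 in the authors' deposited table, also lies above EIF3D and NUB1. The remaining peaks of the 10 largest on named genes are listed for read-through genes, whose reads cannot be told apart from those of a gene inside them. These are ANKHD1-EIF4EBP3 at 2.79 (FDR 0.00085), where the overlapping ANKHD1 peak has 2.69, and PPAN-P2RY11 at 1.46 (FDR 0.047), where the PPAN peak has 0.45, in the authors' deposited table.

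The negative folds are described next. SLTM, which encodes a SAFB-like modulator of transcription, had the largest, a log2 fold of -3.05 at FDR 0.019 per the authors' deposited table, on a weak peak with a log10 peak p of -5.06. Its blocks on chromosome 15 (58892945 to 58894110) measure 21, 167, 86 and 116 bases. ANKS1A, an adaptor of Eph receptors, stood at -1.60 at FDR 0.00052 per the authors' deposited table, over blocks of 44, 93, 121 and 581 bases. ODF2, a protein of centriole appendages, had -1.58 at FDR 0.0081 per the authors' deposited table, and the chromatin remodeller gene CHD6 had -1.56 (FDR 0.031). BIRC2 had -1.46 at FDR 0.036 per the authors' deposited table. RBM33, an RNA-binding protein known to guide ALKBH5 to its targets, had -0.97 at FDR 0.0011 per the authors' deposited table, with an enrichment of 23.1-fold over blocks of 74, 319, 120 and 237 bases. CCDC124 stood at -0.67 (FDR 0.00011) and ILRUN, a regulator of inflammation, at -0.59 at FDR 0.027 per the authors' deposited table. EZR had the smallest called fold, -0.12 at FDR 4.2e-07 per the authors' deposited table, on one of the strongest peaks, with a log10 peak p of -1790. The tenth negative peak is on a gene without a symbol.

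The 5 smallest FDRs fell on FAT1, TAB2, ITPRID2, HDLBP and EIF3D. FAT1 had an FDR of 5e-88 at a log2 fold of 0.79 in the authors' deposited table, with a log10 peak p of -2170. ITPRID2, an actin-binding protein, had 0.92 at FDR 5e-18 per the authors' deposited table, and HDLBP, the RNA-binding KH-domain protein vigilin, had 1.14 (FDR 4e-13) over 5 blocks of 54 to 236 bases. EIF3D, with the same FDR as HDLBP, had a shorter and weaker peak than these, with 359 exonic bases and a log10 peak p of -31.9. Whether spread between the 2 libraries of a group entered the authors' p is not stated. Conversely, 39 of the uncalled peaks had a log2 fold of at least 1 in size. KPNA6 is an example, at 2.24 at FDR 0.22 per the authors' deposited table.

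On 18 genes there were 2 peaks of 4 or more blocks. On 5 of these genes both were called and all of these folds were positive, and on the other 13 neither was called. By peak, 18.4% of the 418 and 8.23% of all 22626 peaks were called. The genes named in this paragraph were chosen after their values were seen. NOLC1, a nucleolar phosphoprotein that binds treacle, had log2 folds of 1.08 (FDR 6.5e-05) and 0.62 at FDR 0.011 per the authors' deposited table. SMURF2, a ubiquitin ligase of the TGF-β pathway, had 1.28 (FDR 6.6e-05) over 4 blocks and 0.72 (FDR 0.0091) over 7 blocks in the authors' deposited table. The integrin β1 gene ITGB1 had 0.86 (FDR 3.2e-10) and 0.38 at FDR 0.013 per the authors' deposited table. ITPRID2 had 0.92 and 0.39, and CALU, a calcium-binding protein of the secretory pathway, had 0.64 (FDR 0.0072) and 0.36 at FDR 0.048 per the authors' deposited table. Peaks of 1 gene share its transcript and are not independent. The peaks of the 13 pairs that were not called had folds from -1.54 on HIP1R (FDR 0.61) to 2.61 on INCENP (FDR 0.056) in the authors' deposited table.

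Other peaks on the same transcript can be set beside the called ones. Of the 67 positive called peaks, 51 lie on a gene that also has a peak of fewer than 4 blocks. The median fold of those other peaks was positive on 34 of the 51, and on 19 at least 1 of them was called, on 16 with the same sign. Without a choice by call, the sign matched for 185 of the 314 peaks with such neighbours, and for 147 of 254 where the peak of many blocks was not called. At least 1 neighbour was called for 57 of the 314 peaks, with the same sign for 39. Among the 254 uncalled peaks this was so for 37, with the same sign for 23. Of the 10 negative called peaks 9 have such neighbours, whose median was negative for 4, and 1 had a called neighbour, of positive sign. Over all 314 peaks with such neighbours, the peak of many blocks was the more enriched one on 171.

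Of the 22 gene lists, 20 had a peak of 4 or more blocks, 73 of the 418 peaks in all, of which 11 were called with a positive and 2 with a negative fold. Their median log2 fold was 0.19. Calls are set below beside the share called of all peaks in the same list, which varied widely around the 8.23% of the whole series. Beside the 1.85% that peaks of 4 or more blocks make up of the whole list, the share was highest for genes of the actin, myosin and tubulin cytoskeleton, where 18 of 198 peaks (9.09%) on 14 genes were of this kind. Members were ACTN4, CFL2, EZR, FLNC, MYH9, MYH11, MYH14, MYO6, MYO10, MYO18A, PLEC, SPTBN1, TLN1 and TPM2. Of the 18, EZR was called negative and TPM2, a tropomyosin, positive, at 0.77 at FDR 0.00026 per the authors' deposited table. The median fold of the 18 was -0.02. In that list as a whole, 18.2% of the 198 peaks were called. TPM2 had 6 blocks of 204, 126, 75, 134, 118 and 266 bases.

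Among RNA helicases 6 of 104 peaks had 4 or more blocks (5.77%) and none was called, where 5.77% of all 104 were. DDX46, a helicase of early spliceosome assembly, was enriched 21.9-fold and DDX24 20.0-fold in the authors' deposited table, the latter over 2070 exonic bases. DHX38, whose site is shown above, stood at 14.9-fold and DDX21, a nucleolar helicase, at 9.83-fold in the authors' deposited table. The log2 folds of these 4 lay between -0.31 and 0.10 in the authors' deposited table. Translation factors, where 24.6% of 126 peaks were called, had 6 peaks of this kind (4.76%), 2 of them called and both positive. These are EIF3D and EIF3H, another eIF3 subunit, at 0.49 at FDR 1.4e-06 per the authors' deposited table. EIF3A and EIF5B, the most enriched members of that list, were near 0 at 0.09 and 0.02 in the authors' deposited table. Splicing factors and hnRNP proteins, where 15.7% of 223 peaks were called, had 9 of this kind (4.04%), with HNRNPD positive, RBM33 negative and 7 not called. The paraspeckle protein gene SFPQ, at 19.3-fold, and the splicing regulator gene RBM4B, at 13.2-fold, are uncalled examples in the authors' deposited table.

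Genes of integrins, laminins, collagens and proteoglycans had 4 of 76 peaks (5.26%), 3 called and all positive. In that list 18.4% of the 76 peaks were called. They are the pair on ITGB1 and 1 on the heparan sulphate proteoglycan gene SDC4, at 0.43 at FDR 0.00019 per the authors' deposited table, while COL18A1 at -0.22 did not pass. Of 3 chaperone peaks CANX was called, at 1.24 at FDR 1.2e-10 per the authors' deposited table. In that list 19.9% of all peaks were called. DNAJB4 at 0.38 and DNAJC1 at 0.29 were not called in the authors' deposited table. The single peak of 4 or more blocks on a cytoplasmic ribosomal protein gene, RPS19, was positive at 0.54 at FDR 0.00066 per the authors' deposited table, over blocks of 36, 184, 55 and 54 bases. Calls were common in that list, at 40.3% of 62 peaks. Of the exon junction and nonsense-mediated decay list, where 6.67% of 45 peaks were called, 1 peak qualified, on the mRNA export adaptor gene ALYREF. It was positive at 1.22 at FDR 0.00043 per the authors' deposited table, over blocks of 15, 64, 178 and 42 bases, and is the only peak on that gene. Of 2 nuclear transport peaks, IPO7 was called and KPNA6 was not, beside 9.09% called of all 77 peaks in that list.

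The m6A machinery itself had 3 of 60 peaks with 4 or more blocks, and none was called, where 8.33% of the 60 were. The nuclear reader gene YTHDC1 had a log2 fold of -0.30 (FDR 0.50) over 839 exonic bases in the authors' deposited table. HNRNPA2B1, a proposed nuclear reader, had 0.24 (FDR 0.48) over 870 exonic bases in the authors' deposited table. The writer subunit gene ZC3H13 had 0.62 (FDR 0.54) on a weak peak with a log10 peak p of -4.11 in the authors' deposited table.

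Zinc finger genes lie at the other end, with 4 of 1002 peaks (0.399%), on ZNF124, ZNF217, ZNF589 and ZNF652, and none called, where 2.59% of the 1002 were. Those 4 peaks had a median enrichment of 23.2-fold in the authors' deposited table. The lowest was ZNF589 at 11.8-fold, on a weak peak with a log10 peak p of -3.1. A block of over 1000 bases lay in 3 of the 4 (1198 on ZNF124, 1554 on ZNF217 and 1158 on ZNF652). Solute carriers had 1 of 317 peaks (0.315%), on SLC39A7. Vesicle coat and adaptor genes had 5 of 174 (2.87%), kinesin and dynein genes 4 of 93 (4.30%), and none of these 9 was called. Among all peaks of each list, 6.62% were called for solute carriers, 12.1% for vesicle coats and adaptors and 5.38% for kinesins and dyneins. The clathrin light chain genes CLTA and CLTB stood at -0.51 and 0.49, the AP-3 subunit gene AP3D1 at -0.33 and the sorting nexin gene SNX30 at 1.16 in the authors' deposited table. Among motor genes, the dynein heavy chain gene DYNC1H1 stood at 0.29, KIF3A at -0.06 and KIF5B at -0.67 in the authors' deposited table. The junction (DSP, at 0.24), mitochondrial ribosome (MRPL44, at 0.03) and oxidative metabolism (ATP5PF, at 0.96) lists had 1 peak each, none called. The same held for the sterol synthesis list (FDFT1, at 0.19) and that of proteasome and ubiquitin-like activation (USP1, at 0.13). The folds of these lists are from the authors' deposited table. Of all peaks in these lists 25%, 17%, 25.2%, 15% and 14.6% were called, in that order. The replication list had the pair on TOP1, and no aminoacyl-tRNA synthetase or glycolysis gene had such a peak.

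Some of these peaks are listed for more than 1 gene. Of the 418, 76 (18.2%) share at least 1 base with a peak of another gene, against 15.7% of the other peaks, 53 on the same strand and 30 on the opposite strand. Once peaks of the set that overlap each other are joined, 410 loci remain, 75 with a called peak (65 positive and 10 negative). The peaks listed for F11R and for an unnamed gene, at 1.01 and 1.02 in the authors' deposited table, are 1 such locus, and 16 of the 77 called peaks overlap a peak of another gene. No symbol was given for 32 of the 418.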

How the data were processed

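The authors processed the reads. Per the submitters' processing notes, GRCh38, HOMER 4.9.1 and BWA 0.7.12 were used, with no role given. Sources used here do not name the peak caller. The deposited list gives, per the file headers, a p-value for each peak, scores that are log10 values of p and FDR, enrichment as a linear ratio, and the log2 fold between the arms. Block lengths and offsets were read from the deposited list, and starts were moved by 1 base to count from 1. Peaks with a blockCount of at least 4 were taken. A peak is called where the authors' FDR is under 0.05. Whether the authors' p is one- or two-sided is not stated. No test of the set was made, and p-values were not recomputed except in an alternative that doubles p and adjusts again (Benjamini-Hochberg, over 22626 peaks). The adjustment and overlap steps were tested on simulated data. Gene bounds come from RefSeq (GRCh38.p14), matched by Ensembl identifier and failing that by symbol or synonym (385 of 418 peaks).

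Members and lists were chosen with earlier results of these data known. Named genes (loci without a symbol, antisense, pseudogene and LINC symbols passed over) are the 10 largest positive and negative called folds, the 5 smallest FDRs, the 8 peaks of most blocks, the 5 highest and lowest enrichments, the 5 longest and widest peaks, and up to 4 peaks per gene list. CDYL, EDF1, HOOK2, PHLPP2, TAF13, UAP1, CDC37, the genes with a gap under 30 bases those with 2 peaks, LINC02210-CRHR1, and the genes of the closing section, were named after their values were seen. Alternatives were another FDR, unadjusted p, doubled p, recentred folds, overlapping peaks left out, 1 peak per gene, other block thresholds, strong peaks only, short blocks not counted, and length classes. Python 3.11.15, pandas 2.3.3 and scipy 1.17.1 were used.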

Additional observations from a re-analysis of the deposited data

How the results depend on the processing

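The counts of 77 called, 67 positive and 10 negative peaks stayed within 1.5 times under doubled p (57 positive, 7 negative; 15.3% called, beside 6.36% of all peaks), recentred folds, overlapping peaks left out (52 and 9; 17.8% beside 7.89%), 1 peak per gene (62 and 10 of 400, beside 10.4% of all peaks so chosen), exactly 4 blocks (52 and 7), a log10 peak p of -10 or lower (65 and 8), and blocks under 10 bases not counted (54 and 9). Among peaks with a log10 p of -10 or lower, 22.0% were called beside 15.4% of all such peaks, a smaller excess than the 18.4% beside 8.23% of the whole list. They moved with an unadjusted p of 0.05 (155 called, 122 positive, 33 negative; 37.1% beside 19.9% of all peaks), with 5 or more blocks (18, 15 and 3) and with 3 or more blocks (243, 204 and 39). An FDR of 0.01 left 5 negative and 47 positive peaks (12.4%, beside 4.95% of all peaks). By exonic length, the share called was 14.3% and 5.88% in the 2 shortest of 5 classes, of 7 and 17 peaks with 1 call each, beside 2.41% and 5.77% of other peaks. The median enrichment was 2.97, 4.22 and 4.06 in the 3 shortest classes. Fewer or more peaks enter these counts by construction. Of 32 named called peaks, 6 were lost at an FDR of 0.01, 5 were lost with p doubled (PPAN-P2RY11, NUB1, CHD6, BIRC2 and ILRUN) and none changed sign when recentred. No paired analysis was possible because the list holds no values per library, and leaving out a replicate was not possible for the same reason. Positions under the authors' own thick bounds were not run, since these equal the peak's bounds. The depth behind each fold is unknown.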

Other observations

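Peaks of 4 or more blocks were spread over all chromosomes from 1 to 22 and X, with none among the 15 mitochondrial and 2 Y-linked peaks. They made up 3.10% of peaks on chromosome 20 and 3.07% on chromosome 10, and 0.890% on chromosome 18 and 0.916% on X. Only 4 lay on annotated long non-coding RNAs and 1 on a pseudogene, LRRC37A16P.

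Where such a peak overlaps one listed for a read-through or neighbouring gene, the pair of folds can be close or far apart. VPS4A, an ATPase of the ESCRT machinery, and the unnamed gene at its locus have -0.82 and -0.81, while the DDIT3 peak (0.01) lies over a MARS1 peak on the other strand (0.93), all in the authors' deposited table. The COMMD3-BMI1 peak (5 blocks) has 0.96 and the BMI1 peak (4 blocks) 0.21 in the authors' deposited table.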
